A study of Mus musculus with 4 samples.

Results

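The comparison set Mll3SI Kit+ bone marrow cells against control Kit+ cells, each group being 1 single-cell library. Members were all cell barcodes of the 2 libraries that held 500 genes or more, 1000 gene UMIs or more (unique molecular identifiers, each counting 1 captured RNA molecule) and at most 10% of UMIs from mitochondrial genes. They numbered 15769 cells of the 34122 that passed the same filter in the whole series, 7152 of them control and 8617 Mll3SI. RNA and 15 antibodies (13 against surface proteins, 2 hashtags) were counted together in each cell (CITE-seq, 10x Genomics 3′ chemistry, version 3.1).

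The cells of both groups were CD45.2+Kit+ marrow cells of mice, 10 weeks after transplantation. The control library carries the name wt and the Mll3SI library the name mll3KI. The labels do not spell out SI, give no strain, sex, donor or recipient number or batch, and do not say what the 2 hashtags marked. Both groups are therefore a model of blood formation after transplantation and not of steady-state marrow. Cells carrying Hashtag1 and cells carrying Hashtag2 are given side by side below as a spread within a library, not as replicates. Hashtags of the same number are not known to match between the libraries. With 1 library on each side no test was possible, and the intervals in brackets are 95% intervals that cover counting error only. PCR copies were removed by the UMIs, but cells of 1 library share their preparation.

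MLL3, encoded by Kmt2c, is a histone methyltransferase that places monomethylation on lysine 4 of histone H3, the mark of enhancers. It works in a complex with the demethylase Kdm6a (UTX), the adaptors Ncoa6, Paxip1 and Pagr1a, and a core of Wdr5, Rbbp5, Ash2l and Dpy30 that all enzymes of the family share. In blood formation such enhancers direct stem cells to the myeloid, erythroid and lymphoid lines, and Ebf1 and Pax5 are the transcription factors that commit a progenitor to the B-cell line.

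The kept cells held 138592699 gene UMIs in control and 139652793 in Mll3SI, with a median of 17284.5 and 14120 UMIs per cell, so the Mll3SI cells were the shallower. The 2 libraries shared 13 cell barcodes. Cells above the thresholds of both hashtags, a sign of 2 cells in a droplet, made up 3.98% of control and 8.20% of Mll3SI cells. Kit RNA had 111 CPM (UMIs of a gene per 1000000 gene UMIs) in control against 101 in Mll3SI, and the CD117 antibody, which binds the Kit protein, averaged 179 UMIs per cell in each library.

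Kmt2c (ENSMUSG00000038056, GRCm38 chromosome 5, 25271798 to 25498783) was read first, although the labels do not say whether its transcript should change. It stood at 134 CPM in Hashtag1 and 125 CPM in Hashtag2 cells of control, and at 109 and 112 CPM in Mll3SI. The Mll3SI values lay below both control values, with a log2 ratio of -0.25 over all cells and of -0.10 when the clusters of Mll3SI were weighted as in control. The transcript was therefore present in Mll3SI, and its level does not check the label. Of the 18 genes of the H3K4 methyltransferase list, 17 were tested and none was called, with a median log2 ratio of -0.06. The highest was Dpy30, a subunit of the shared core, at 0.25 (180 and 191 CPM in control, 222 and 221 CPM in Mll3SI), and Kmt2c was the lowest. Within 5 Mb of Kmt2c, 51 genes were tested, and 0 were called higher and 0 lower.

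Across all kept cells, 9781 genes reached 5 CPM in either library and were tested. A gene was called when the log2 ratio of CPM + 1 was at least 0.5 in size and its counting interval left out 0. By that rule 82 genes were higher in Mll3SI (0.838% of those tested) and 145 were lower (1.48%). The median log2 ratio of all genes tested was -0.01. In such sums over a library fewer cells of a type and less RNA per cell cannot be told apart. As a yardstick within a library, the same rule between Hashtag1 and Hashtag2 cells called 69 genes higher (0.704%) and 32 lower (0.326%) in control, and 81 higher (0.832%) and 43 lower (0.442%) in Mll3SI. Both Mll3SI hashtag values lay above both control values in 68 of the 82 higher genes (0.695% of all tested), and of all genes tested in 29.4%. They lay below them in 137 of the 145 lower genes (1.4% of all tested), and of all genes tested in 30.8%.

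**Figure D1:**
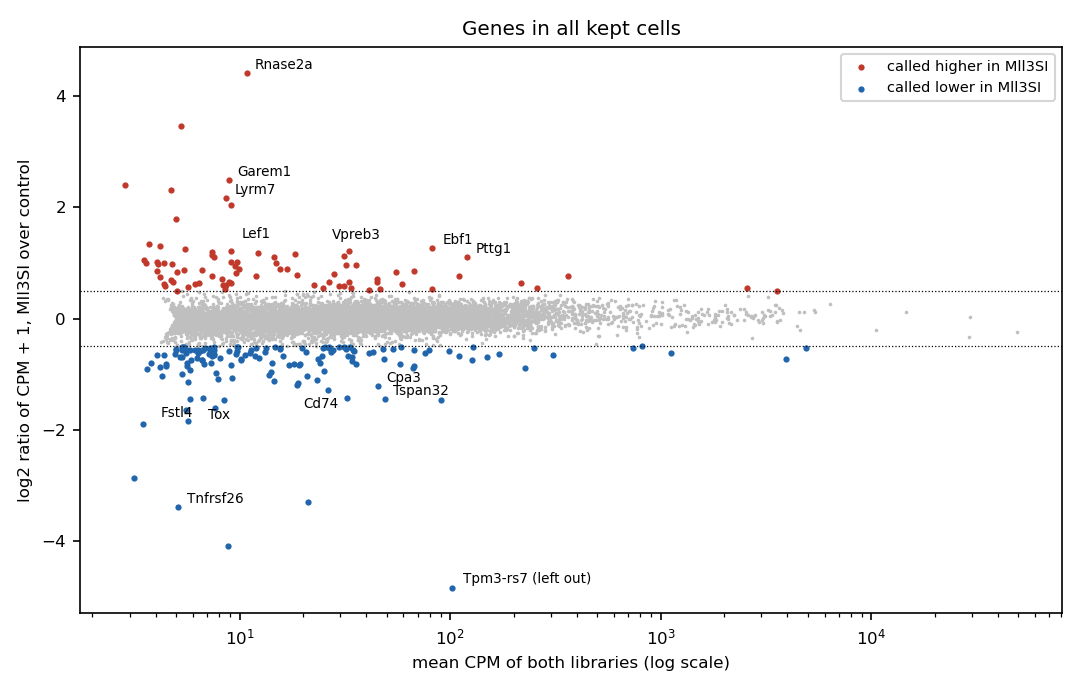
Log2 ratio of CPM + 1 (Mll3SI over control, vertical axis) against mean CPM of the 2 libraries (log axis) for the 9781 genes tested in all kept cells. Red points are the 82 genes called higher and blue points the 145 called lower, dotted lines mark 0.5 and -0.5, and most genes lie close to 0.

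The libraries differed in their mix of cells, and cell classes were rebuilt here by clustering both libraries together without the marker and list genes. The HSC/MPP-like class, of stem and multipotent progenitor markers, took 12.6% of Hashtag1 and 11.5% of Hashtag2 cells in control, and 11.5% and 10.1% in Mll3SI. The lowest control value and the highest Mll3SI value were nearly equal, and over all cells the share was 11.9% and 10.2%, a ratio of 0.861 [0.787 to 0.942]. The class was not filled alike: cluster 4 held 9.77% of control and 7.601% of Mll3SI cells, and cluster 13, led by Pf4 and with 7 megakaryocyte markers beside 9 of its own class, held 2.10% and 2.62%. With 20 principal components or at Leiden resolution 2 a cluster led by Pf4 took the megakaryocyte name, so values within the class rest on a different mix in each library. Granulocyte-monocyte-like cells were the bulk of both libraries, with 75.1% and 75.9%, a ratio of 1.01 [0.993 to 1.03].

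B-lymphoid-like cells were the class with the highest ratio. They made up 1.32% of Hashtag1 and 0.656% of Hashtag2 cells in control, and 4.04% and 1.25% in Mll3SI. The Hashtag2 cells of Mll3SI held a smaller share than the Hashtag1 cells of control, so the hashtag values overlapped. Over all cells 72 of 7152 control cells and 226 of 8617 Mll3SI cells were B-lymphoid-like, a ratio of 2.61 [1.998 to 3.43]. With hashtags paired by number, a link that the labels do not give, the ratio was 1.91 in Hashtag2 and 3.06 in Hashtag1 cells. Erythroid-like cells went from 4.49% to 3.49% (0.778 [0.666 to 0.910]), with overlapping hashtag values of 5.37% and 3.58% in control and 3.82% and 3.24% in Mll3SI. Basophil/mast-like cells went from 2.42% to 1.46% (0.605 [0.479 to 0.762]), and here all values were apart, at 2.53% and 2.42% in control and 1.42% and 1.73% in Mll3SI.

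**Figure D2:**
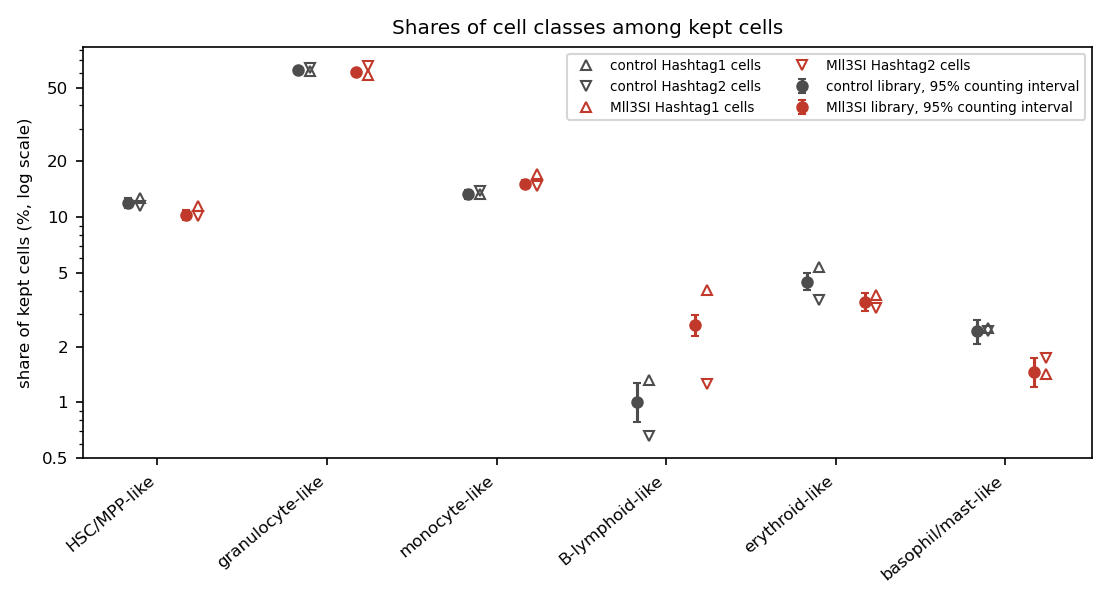
Share of kept cells (percent, log axis) in each rebuilt class in the control (grey) and Mll3SI (red) libraries. Filled points are whole libraries with 95% Clopper-Pearson intervals and open triangles are Hashtag1 and Hashtag2 cells. The B-lymphoid-like share is higher in Mll3SI but spans 1.25% to 4.04% between its hashtags.

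Cells that were given no name made up 5.10% of control and 6.28% of Mll3SI cells. Among them cluster 11 held 2.29% and 4.85% of the cells, of which 98.8% and 92.1% were scored as doublets (droplets holding 2 cells). Another unnamed cluster, led by the antigen presentation genes Cd74, H2-Aa, H2-Eb1 and H2-Ab1, held 0.657% and 0.360%. The granulocyte-monocyte-like class was not filled alike: cluster 0 held 6.61% of control and 15.9% of Mll3SI cells, and cluster 2 held 14.7% and 4.44%. Since 1 library stands for each group, a cluster drawn mostly from 1 library may be that library and not a kind of cell.

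B-lineage genes made up 12 of the 82 genes called higher. Of the list of B-cell transcription factors 8 were tested and 3 called higher (Ebf1, Lef1 and Pax5), and of the pre-B receptor and B-cell surface list 12 were tested and 6 called higher (Vpreb1, Vpreb2, Vpreb3, Igll1, Cd79a and Blnk). From the lymphoid priming list 3 of 12 were called higher, namely Il7r, Ly6d and Dntt. None of these lists had a gene called lower. Over all genes tested 0.838% were called higher and 1.48% lower. The list medians were 0.24, 0.44 and -0.03 on the log2 scale, beside -0.01 for all genes.

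Ebf1 (ENSMUSG00000057098, chromosome 11, 44617317 to 45008091), which with Pax5 sets the B-cell programme, was counted at 69.0 CPM in Hashtag1 and 26.5 CPM in Hashtag2 cells of control, and at 186 and 63.4 CPM in Mll3SI. Both hashtags of Mll3SI stood above the control hashtag of the same number, but the Hashtag2 value of Mll3SI lay below the Hashtag1 value of control. Over all cells it went from 48.1 to 117 CPM, a log2 ratio of 1.26, with an interval of 1.24 to 1.32 for the ratio without the added 1.

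Igll1 and Vpreb1, neighbours on chromosome 16 that encode the surrogate light chain of the pre-B-cell receptor, followed the same pattern. Igll1 stood at 15.5 and 6.89 CPM in control and at 39.6 and 16.0 CPM in Mll3SI (log2 ratio 1.16). Vpreb1 stood at 29.2 and 13.9 CPM in control and at 65.1 and 27.5 CPM in Mll3SI (0.96). For Igll1 the 2 libraries were just apart, and for Vpreb1 they overlapped. Vpreb1 and Vpreb2 are near-identical copies between which the counting could split reads, so their separate values are uncertain.

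Vpreb3, another gene of the pre-B receptor and B-cell surface list, stood at 27.0 and 13.02 CPM in control and at 73.5 and 28.7 CPM in Mll3SI (1.20). Blnk, the adaptor behind the pre-B-cell receptor, had 6.74 and 3.51 CPM against 20.1 and 7.51 CPM (1.21). In both libraries Hashtag1 cells held more RNA of these genes than Hashtag2 cells. Lef1, a Wnt pathway transcription factor used in pro-B cells, had 9.05 and 5.09 CPM against 26.8 and 10.2 CPM (1.18). Dntt, the polymerase that adds bases at antigen receptor joints, differed: control held 20.6 and 20.7 CPM, and Mll3SI 59.7 and 16.4 CPM, so that its Hashtag2 cells were lower than control (log2 ratio -0.32) and its Hashtag1 cells higher.

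**Figure D3:**
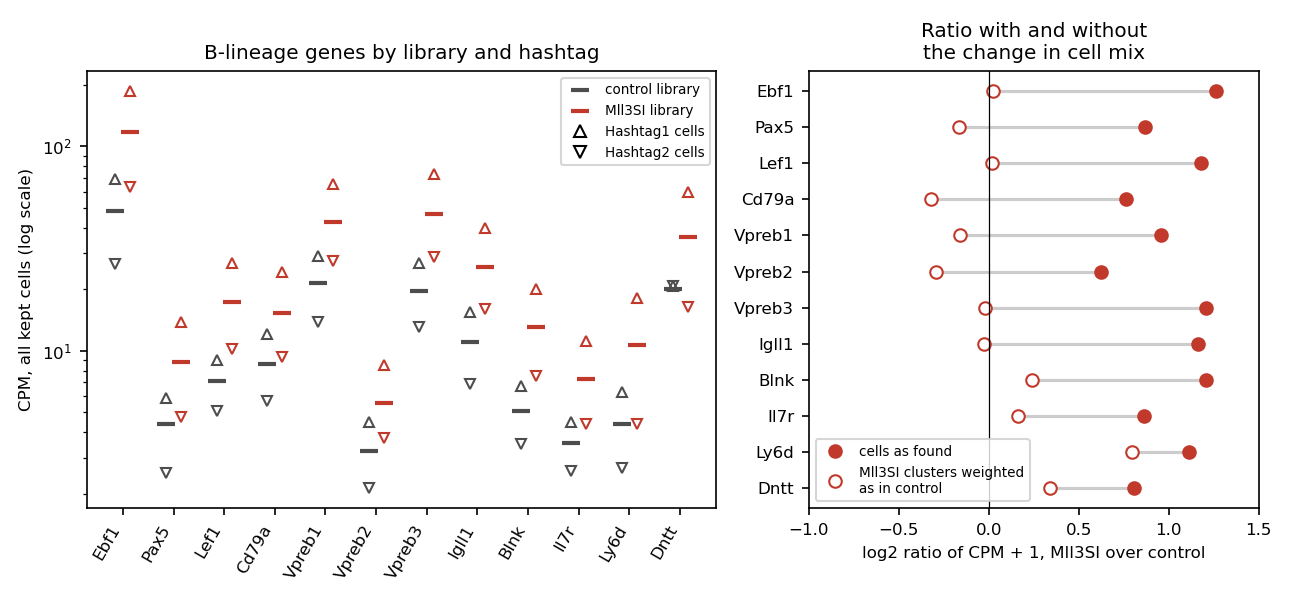
Left, CPM over all kept cells (log axis) of 12 called B-lineage genes, with bars for the control (grey) and Mll3SI (red) libraries and triangles for their Hashtag1 and Hashtag2 cells. Right, log2 ratio of the same genes with the cells as found (filled) and with the Mll3SI clusters weighted as in control (open). The open points range from -0.32 for Cd79a to 0.80 for Ly6d, the farthest from 0.

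The difference moved with the number of B-lymphoid-like cells. With the Mll3SI clusters weighted as in control, the log2 ratio was 0.03 for Ebf1, 0.02 for Lef1, -0.02 for Vpreb3, -0.03 for Igll1 and -0.17 for Pax5. It was further from 0 for Cd79a (-0.32), Vpreb2 (-0.29) and Blnk (0.24). The medians of the transcription factor and pre-B lists were -0.09 and -0.12. Among B-lymphoid-like cells themselves Ebf1 had 4947 and 5289 CPM, counted in cells with 1 hashtag that were not scored as doublets (64 and 183 cells). Over all B-lymphoid-like cells it had 4640 and 4303 CPM, a log2 ratio of -0.11. The farthest from 0 was Ly6d, a surface protein of lymphoid progenitors turning to the B line. Its log2 ratio was 1.11 with the cells as found and 0.80 at the control mix, and in the same single B-lymphoid-like cells it had 155 and 312 CPM. Over all B-lymphoid-like cells it was 178 and 236 CPM, a log2 ratio of 0.40, and the hashtag values of 197 and 134 CPM in control and 304 and 196 CPM in Mll3SI overlapped. They overlapped over all kept cells as well, at 6.28 and 2.67 CPM against 18.1 and 4.38 CPM.

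The upstream sequences of Igll1 and Vpreb1 are shown because both genes were called higher. Both are the 250 bases before the RefSeq start (GRCm38.p6), minus strand, chr16:16863986-16864235 for Igll1 and chr16:16869256-16869505 for Vpreb1. Capitals mark CCCNNGGG, a core of the sites bound by Ebf1, and CAGGTG or its complement CACCTG, an E-box bound by E2A proteins, searched on both strands.
Igll1: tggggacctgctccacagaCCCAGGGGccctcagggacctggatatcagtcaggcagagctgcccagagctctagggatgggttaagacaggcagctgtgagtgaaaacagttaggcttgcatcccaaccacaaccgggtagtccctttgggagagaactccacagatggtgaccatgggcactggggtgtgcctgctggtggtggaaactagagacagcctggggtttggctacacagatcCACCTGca
Vpreb1: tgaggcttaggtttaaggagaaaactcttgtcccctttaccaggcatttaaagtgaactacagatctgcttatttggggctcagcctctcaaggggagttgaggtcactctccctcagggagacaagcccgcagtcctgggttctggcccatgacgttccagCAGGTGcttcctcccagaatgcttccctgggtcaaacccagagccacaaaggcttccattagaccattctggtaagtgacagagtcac
Of the 12 called B-lineage genes 11 had an entry, and 1 of them (Igll1) held CCCNNGGG and 5 held the E-box. Over all 27025 genes of the table the shares were 13.4% and 19.4%. A match is a run of letters in this window and not a bound site.

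Within HSC/MPP-like cells 6924 genes reached 20 CPM in either library, and 39 were called higher (0.563%) and 42 lower (0.607%). The highest by ratio was Ebf1, from 5.06 to 23.3 CPM (log2 ratio 2.002), with hashtag values of 3.74 and 6.98 CPM in control and 22.3 and 12.95 CPM in Mll3SI, which did not overlap. In cells with 1 hashtag that were not scored as doublets it was 5.37 and 14.3 CPM, or 1.27. That is under the 20 CPM minimum, and Rabgef1 had a higher ratio there (1.43), so the rank rests on the cells left out. Few cells carried it: a UMI was found in 15 of 820 such control cells and in 28 of 837 Mll3SI cells, and 1 cell held 44 of the 91 UMIs of control. In erythroid-like cells, which should lack Ebf1, 3 of 298 control and 5 of 267 Mll3SI cells had a UMI. The HSC/MPP-like class had a median of 20656 UMIs per control and 15654 per Mll3SI cell, and the erythroid-like class 18064 and 13716.

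Ly6d came next, from 11.2 to 31.99 CPM (1.43), found in 9 of the 820 control and 22 of the 837 Mll3SI cells. Its Hashtag2 cells stood at 9.87 and 11.6 CPM in control and Mll3SI, so nearly all of the difference lay in Hashtag1 cells, at 13.6 and 45.8 CPM. Esam, an endothelial and stem cell adhesion molecule, had 11.8 and 7.34 CPM in control against 20.1 and 26.2 CPM in Mll3SI (1.13), with no overlap. It was the 1 gene of the stem cell list called higher in these cells. That list had a median of 0.15 over 15 genes, beside 0.01 for all genes, and included Mecom (0.34), Meis1 (0.22), Hlf (0.06) and Hoxa9 (-0.03). Fam102b went from 18.3 to 43.1 CPM (1.19) and Bex4 from 12.2 to 27.4 CPM (1.11).

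Among the genes lower in HSC/MPP-like cells, Tox, a nuclear regulator of lymphoid development, stood at 58.7 and 88.9 CPM in control and at 25.4 and 30.2 CPM in Mll3SI (log2 ratio -1.30). S100a6, a calcium-binding protein, had 86.2 and 76.9 CPM against 35.2 and 39.1 CPM (-1.18). Neither gene overlapped between the libraries. Chil3, a chitinase-like protein of neutrophil precursors, had -1.08 and Fggy, a carbohydrate kinase, -1.97. Chil3 had 89.5 and 41.8 CPM there against 4896 and 2954 CPM over all cells, and 53.8 and 30.2 CPM in cells with 1 hashtag that were not scored as doublets. The part of free RNA and doublets in these values was not tested.

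Granule genes are listed by the stage at which neutrophil precursors make them, and the difference between the 2 lists was not tested. All 13 primary granule genes, made in promyelocytes, had log2 ratios above 0 over all kept cells, with a median of 0.33, and 2 were called higher. Of the 21 secondary granule and late neutrophil genes, 16 had ratios below 0, with a median of -0.24, and 4 were called lower and 1 higher. The hashtag values of Mll3SI lay above those of control in 8 of the 13 primary genes, and below them in 15 of the 21 later genes. Over all genes tested 29.4% lay above and 30.8% below in this way, and 0.838% were called higher and 1.48% lower.

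Elane (ENSMUSG00000020125, chromosome 10, 79886247 to 79888215), the neutrophil elastase, stood at 2529 and 3403 CPM in Hashtag1 and Hashtag2 cells of control and at 4269 and 4118 CPM in Mll3SI, a log2 ratio of 0.50. Its neighbour Prtn3, proteinase 3, stood at 1803 and 2431 CPM in control and at 3085 and 3007 CPM in Mll3SI (0.54). The libraries were apart for both genes, and the control hashtags lay further from each other than the Mll3SI hashtags did. Ctsg, cathepsin G, had 0.41, while Mpo, the myeloperoxidase of the same granules, had 0.07 and was not called.

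The later genes called lower were Mmp8 and Mmp9, the collagenase and gelatinase of neutrophils, Chil3, and Padi4, which converts arginine of histones. Mmp8 stood at 24.5 and 13.2 CPM in control and at 9.19 and 8.86 CPM in Mll3SI (-1.01). Chil3 stood at 4949 and 4769 CPM in control and at 2521 and 3202 CPM in Mll3SI (-0.73). Both genes were lower in each Mll3SI hashtag than in either control hashtag. Itgb2l, an integrin subunit of the neutrophil line, went the other way, from 40.1 and 38.1 CPM to 65.3 and 73.2 CPM (0.84). S100a8 (-0.32), S100a9 (-0.25) and Ltf (-0.36) were not called, and Camp was at 0.02.

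**Figure D4:**
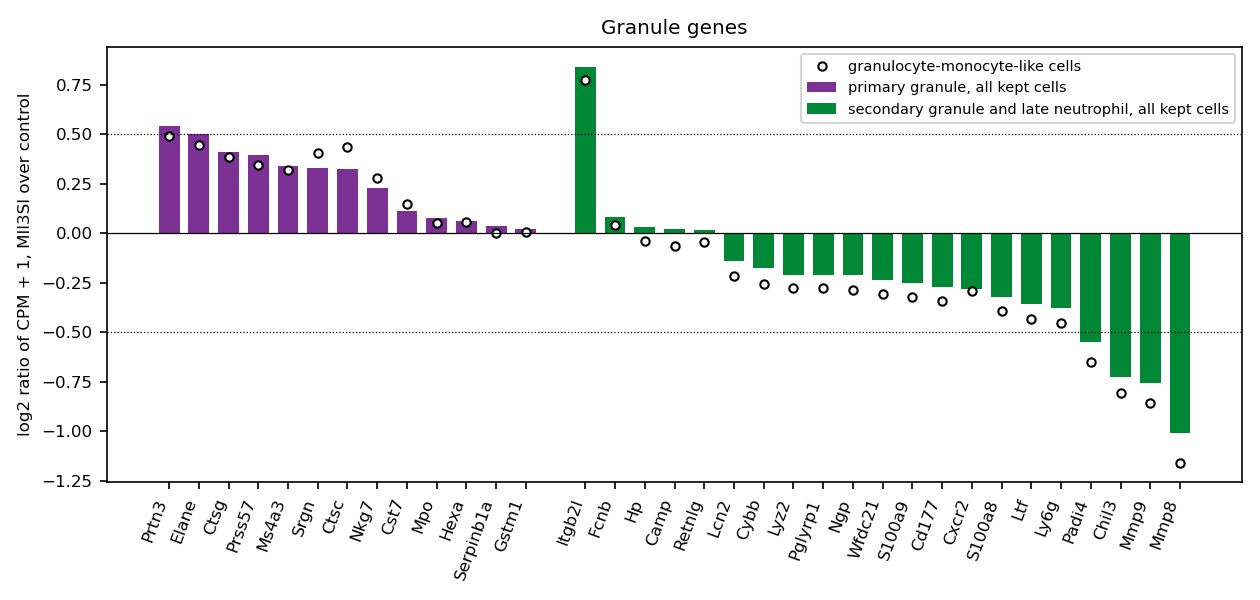
Log2 ratio of CPM + 1 (Mll3SI over control) of the 13 primary granule genes (purple) and the 21 secondary granule and late neutrophil genes (green) over all kept cells, with open points for granulocyte-monocyte-like cells and dotted lines at 0.5 and -0.5. Purple bars all lie above 0, and the green bars range from 0.84 for Itgb2l to -1.01 for Mmp8.

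Within granulocyte-monocyte-like cells the medians were 0.32 and -0.30 beside 0.02 for all genes. None of the 13 primary granule genes was called there, with Elane at 0.45 and Prtn3 at 0.49, and of 20 later genes 4 were called lower and 1 higher. The shares over all genes tested in these cells were 0.991% lower and 0.585% higher. With the Mll3SI clusters weighted as in control the medians came to 0.06 and -0.06. The clusters were built from the same cells and some were drawn mostly from 1 library. This weighting therefore cannot tell cell mix from expression. Chil3 kept -0.59 at the control mix, while Elane had 0.12 and Mmp8 -0.32. The myeloid transcription factors had none called of 13, with Cebpe, needed for the secondary granules, at -0.23 and Cebpb at 0.37. Granulocyte-like cells as a whole made up 61.9% of control and 60.8% of Mll3SI cells, and monocyte-like cells 13.3% and 15.1%.

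The upstream sequences of the neighbours Elane and Prtn3 are shown as the pair of primary granule genes called higher, 250 bases before the RefSeq start (GRCm38.p6), plus strand, chr10:79886062-79886311 and chr10:79879417-79879666. Capitals mark GAGGAA or its complement TTCCTC, the core of sites bound by the myeloid factor PU.1, searched on both strands.
Elane: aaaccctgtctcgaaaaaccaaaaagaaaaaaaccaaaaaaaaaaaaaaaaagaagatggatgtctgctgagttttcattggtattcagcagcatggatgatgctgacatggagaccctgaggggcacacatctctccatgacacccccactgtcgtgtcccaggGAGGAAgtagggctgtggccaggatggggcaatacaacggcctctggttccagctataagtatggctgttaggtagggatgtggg
Prtn3: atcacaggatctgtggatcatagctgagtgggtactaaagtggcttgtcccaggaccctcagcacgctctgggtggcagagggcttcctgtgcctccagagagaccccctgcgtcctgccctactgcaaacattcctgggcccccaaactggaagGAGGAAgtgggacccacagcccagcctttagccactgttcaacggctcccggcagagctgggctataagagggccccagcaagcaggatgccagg
Of the 7 called granule genes 6 had an entry and 4 held the motif, against 25.9% of the 27025 genes of the table. The 4 included Mmp8, which was lower.

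Within granulocyte-monocyte-like cells 6157 genes reached 20 CPM, with 36 called higher (0.585%) and 61 lower (0.991%). Qdpr, which recycles tetrahydrobiopterin, stood at 18.1 and 18.9 CPM in control and at 45.5 and 40.1 CPM in Mll3SI (log2 ratio 1.16). Ada, adenosine deaminase, had 9.02 and 9.81 CPM against 20.1 and 22.8 CPM (1.13), and Mgl2, a lectin of myeloid cells, 12.4 and 16.4 CPM against 28.9 and 24.9 CPM (0.84). All were apart between the libraries. Among lower genes, Serpine2, a protease inhibitor, had 24.9 and 24.6 CPM against 9.33 and 14.4 CPM (-0.98), Rnf144a, a ubiquitin ligase, 101 and 91.9 CPM against 47.8 and 52.1 CPM (-0.94), and Itih5 -0.94. Cd14, the lipopolysaccharide co-receptor of monocytes and the 1 monocyte list gene called, went from 1.63 and 1.69 CPM over all cells to 8.36 and 8.50 CPM (1.80).

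Of 9 erythroid genes tested over all cells, 5 were called lower and none higher, 1 ratio lay above 0, and the median was -0.53. The share called lower over all genes tested was 1.48%. Car1, carbonic anhydrase 1, stood at 155 and 115 CPM in control and at 71.8 and 97.0 CPM in Mll3SI (-0.67), and Klf1, the erythroid master regulator, at 7.38 and 5.93 CPM against 3.71 and 3.73 CPM (-0.69). Both were apart. The share of erythroid-like cells was lower as well, and with the clusters weighted as in control the median was -0.16. In erythroid-like cells alone 97 genes were called higher (1.42% of 6813) and 83 lower (1.22%), and 5 of 15 erythroid genes were called lower with a median of -0.37.

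Among genes lower in erythroid-like cells, Ntn4, a netrin, stood at 24.4 and 27.0 CPM in control and at 7.94 and 7.91 CPM in Mll3SI (-1.55), and Scin, an actin-severing protein, went from 57.8 to 20.9 CPM (-1.42). Pcdh7 had -1.30 and Hmga2, a chromatin protein of fetal progenitors, -1.12. The highest ratios there were those of Ccnb1ip1, a RING-type ligase, from 1.04 and 1.42 CPM in control to 32.7 and 36.3 CPM in Mll3SI (3.94), and of Peli2, a ubiquitin ligase of the Toll-like receptor pathway, from 2.60 and 4.26 CPM to 20.1 and 23.3 CPM (2.26). Both were apart, and their ratios were 4.01 and 2.68 in cells with 1 hashtag that were not scored as doublets. The part of DNA sequence differences or of read assignment in these ratios was not tested. The other genes leading the higher ones included neutrophil genes, among them Camp (1539 to 3429 CPM) and Fcnb (22.6 to 49.98 CPM), together with Ms4a6c and Gsn. In erythroid-like cells with 1 hashtag that were not scored as doublets Camp was at 231 and 379 CPM, with 1 Mll3SI cell holding 759 of 1529 UMIs, and Gsn at 5.45 and 8.18 CPM. The share of erythroid-like cells with both hashtags was 3.43% in control and 6.64% in Mll3SI, and its part in these genes was not tested.

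The B-lymphoid-like class held the most genes by the same rule, 361 higher (5.43% of 6646) and 254 lower (3.82%), from 72 and 226 cells. The genes leading the higher ones were Olfm4, Elane, B4galt6, Prtn3, Ctsg and Rabgef1. Elane, Prtn3 and Ctsg are neutrophil granule genes, and Elane was at 96.7 CPM in control against 1499 in Mll3SI. In cells with 1 hashtag that were not scored as doublets Elane stood at 45.01 and 338 CPM, and 1 Mll3SI cell held 367 of the 823 UMIs. Rabgef1 went from 7.16 to 50.4 CPM over the class, and from 5.30 to 54.2 CPM in the cells with 1 hashtag not scored as doublets. Of B-lymphoid-like cells 5.56% in control and 11.1% in Mll3SI carried both hashtags, and 9.72% and 16.4% were scored as doublets. Without those cells 204 genes were higher and 185 lower. Cd74 was lower with and without them, from 32.2 to 1.10 CPM and from 30.9 to 1.64 CPM, found in 5 control and 2 Mll3SI cells, and 1 control cell held 30 of the 35 UMIs.

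Basophil and mast cell genes were mixed. Cpa3, the mast cell carboxypeptidase, stood at 67.8 and 61.5 CPM in control over all cells and at 30.6 and 25.0 CPM in Mll3SI (-1.21), while Mcpt8, the basophil protease, stood at 24.4 and 41.9 CPM in control and at 59.8 and 63.1 CPM in Mll3SI (0.72). Both were apart, in opposite directions. The list had 1 gene called higher and 3 lower (with Ms4a2 and Il1rl1) of 8 tested. The shares over all genes tested were 0.838% higher and 1.48% lower. In basophil/mast-like cells 175 genes were called higher (2.50% of 6996) and 234 lower (3.34%). There Mcpt8 went from 640 and 1392 CPM in control to 3519 and 3320 CPM in Mll3SI (log2 ratio 1.69), Prss34, another basophil protease, from 616 to 1046 CPM (0.76), and Cpa3 from 1603 to 1144 CPM (-0.49). Fcer1a, the IgE receptor chain of both cell kinds, was at 177 and 195 CPM.

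Of the 7 dendritic and MHC class II genes tested, Cd74, H2-Aa, H2-Eb1 and H2-Ab1 were called lower, with a list median of -0.94, which was -0.59 at the control mix. The share called lower over all genes tested was 1.48%. Cd74, the invariant chain, stood at 20.9 CPM in Hashtag1 and 54.2 CPM in Hashtag2 cells of control, and at 20.3 and 11.6 CPM in Mll3SI. Hashtag1 cells were thus alike in the 2 libraries, and the control Hashtag2 cells alone stood high. In Hashtag1 cells alone H2-Aa and H2-Eb1 turned to 0.06 and 0.26. The MHC class I list had 1 of 12 called, H2-T23, which was lower (-0.73).

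Other groups showed no or few calls. Interferon-stimulated genes had none called of 7, with all 7 ratios below 0 and a median of -0.21. Replication and mitosis genes had none of 20 called and a median of 0.08, and none was called among 15 other enhancer regulators, 82 cytosolic ribosomal protein genes, 83 nuclear respiratory chain genes and 13 mitochondrially encoded genes. Replication-dependent histone genes had a median of -0.22 over 46 tested, with 37 below 0. Most copies of these genes are near-identical, so their separate values are uncertain. Gata2, a stem and mast cell transcription factor, was lower (-0.51) over all cells and at -0.05 in HSC/MPP-like cells. Id3 (2.34 to 5.75 CPM), an inhibitor of E2A proteins, and Sdf2l1 (210 to 306 CPM), a chaperone of the endoplasmic reticulum, were called higher.

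Markers of other cells were read as sums. The 10 stromal and endothelial genes summed to 1.70 and 1.63 CPM, none reaching the minimum. Of the plasma cell genes 2 of 3 tested were called higher (against 0.838% of all genes tested), and they were unevenly spread over hashtags. The sum of the 8 genes was 238 and 9.25 CPM in control and 282 and 143 CPM in Mll3SI. Igkc, an immunoglobulin light chain, was called higher (0.77), but was at -0.00 without cells scored as doublets. Prg2, a granule protein of eosinophils, was lower (-0.57) but stood at 0.02 at the control mix. The T, NK and innate lymphoid list had Ccl5 called lower (-0.86) of 2 tested.

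Other genes differed in the same direction in all 5 classes and in both hashtags. Pttg1, the securin of dividing cells, stood at 77.7 and 74.1 CPM in control and at 167 and 160 CPM in Mll3SI (1.10), and at 144 and 143 CPM in the Mll4SI and Mll3/4SI libraries. Rabgef1, an exchange factor of the endosomal Rab5, stood at 19.7 and 19.2 CPM in control and at 42.7 and 44.2 CPM in Mll3SI (1.12), and at 19.5 and 19.1 CPM in the other 2 libraries. Tspan32, a tetraspanin of blood cells, stood at 72.0 and 71.5 CPM in control and at 24.4 and 26.8 CPM in Mll3SI (-1.44), against 58.4 and 67.4 CPM in Mll4SI and Mll3/4SI. Their log2 ratios at the control mix were 1.08, 1.11 and -1.39, so these ratios were nearly as large at the control mix. Pttg1 was between 0.76 and 1.13 in the 5 classes, and Tspan32 between -2.51 and -1.22.

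Of the genes named by size, Rnase2a (ENSMUSG00000047222, chromosome 14, 51255262 to 51256112), a ribonuclease of a gene family with close copies, stood at 0.08 and 0.03 CPM in control and at 21.4 CPM in both hashtags of Mll3SI (4.42), and at 0.03 and 0.04 CPM in Mll4SI and Mll3/4SI. Tnfrsf26, a decoy receptor, went the other way, from 9.11 and 11.3 CPM to 0.07 and 0.06 CPM (-3.39). Rnase2a was not in the same direction in all classes, with 4.69 in granulocyte-monocyte-like and -0.43 in basophil/mast-like cells, where it was near 0 CPM. Garem1 (2.49), Lyrm7 (2.16), Cecr2 (1.20), Paox (-1.20), Fstl4 (-1.61), Stfa1 (-1.42), Adgrl2 (-1.11) and Il18r1 (-1.09) complete the genes named by size. Fstl4 was at 1.12 in erythroid-like cells (0.557 and 2.39 CPM) and Stfa1 at 0.09 in B-lymphoid-like cells (0.716 and 0.826 CPM), against their lower values over all cells. Both lay far under the minimum of 20 CPM used within a class. Cecr2 was at 0.13 at the control mix and moved with the B-lymphoid-like cells.

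Several of these genes are neighbours. Over all genes tested 0.838% were called higher and 1.48% lower. On chromosome 7 between 140 and 150 Mb, 6 of 52 tested genes were called, namely Paox, Mtg1, Ifitm6, Tspan32, Tnfrsf26 and E230032D23Rik. On chromosome 1 between 40 and 50 Mb 4 of 19 were called, all of them interleukin 1 receptor family genes (Il1r2, Il1rl2, Il1rl1 and Il18r1) and all lower. On chromosome 12 between 20 and 30 Mb 4 of 20 were called, with Rnf144a among them, all lower. On chromosome 14 between 50 and 60 Mb 8 of 84 were called, Rnase2a, Rnase12, Pnp2, Slc7a7 and Mcpt8 among them. On chromosome 11 between 40 and 50 Mb 3 of 28 were called (Pttg1, Ebf1 and 9930111J21Rik2). Between 50 and 60 Mb there 4 of 78 were called (Tbc1d9b, Fstl4, Lyrm7 and Gm2a). On chromosome 10 between 70 and 80 Mb 4 of 57 were called, all higher (Chchd10, Vpreb3, Prtn3 and Elane). On chromosome 16 between 10 and 20 Mb 5 of 76 were called (Igll1, Vpreb1, Vpreb2, Sdf2l1 and Gm46563). Differences in the DNA sequence around these genes, or in how reads were assigned to close copies, can give such values and were not tested. Ebf1, Mcpt8, Elane, Prtn3, Igll1, Vpreb1, Vpreb2 and Vpreb3 lie within such runs. On chromosome 17 between 30 and 40 Mb 11 of 140 were called, with H2-Aa, H2-Eb1, H2-Ab1 and H2-T23 among them. On chromosome 3 between 10 and 20 Mb 4 of 15 were called, namely the family members Car1, Car2 and Car3, and Gm9733. Tpm3-rs7, a copy related to Tpm3, had 199 CPM in control against 6.01 in Mll3SI, while Tpm3 itself went from 270 to 458 CPM, and nothing is drawn from either. Other genes left out by their symbols (E230032D23Rik, 1700016D06Rik, A630089N07Rik, Gm2a, Gm49980 and Gm7030) are uncertain for the same reason, although Gm2a is a lysosomal gene that the symbol rule catches by its spelling. Igha, an immunoglobulin gene, was left out too, and 1 cell held 98.6% of its 1466 UMIs in Mll3SI.

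Surface antibodies were compared as shares of the 18766435 and 23182471 surface antibody UMIs. CD127, the interleukin 7 receptor, took 0.341% and 0.220% in control and 0.457% and 0.465% in Mll3SI (log2 ratio 0.57), and the RNA of its gene Il7r was higher too (0.86). CD201, the protein C receptor of stem cells, took 0.134% and 0.0967% against 0.191% and 0.198% (0.60), while its gene Procr was at -0.17. B220 took 0.858% and 0.653% against 1.30% and 1.12% (0.58), while Ptprc RNA was at -0.32. All were apart between the libraries. In B-lymphoid-like cells both B220 (13.6% and 9.57%, log2 ratio -0.51) and CD127 (3.63% and 2.89%, -0.33) went the other way. Per cell B220 had 277 and 230 UMIs and CD127 73.8 and 69.7. The shares of CD16_32 (2.78% and 8.84%), CD11b (1.92% and 5.19%) and Gr1 (6.61% and 10.9%) rose there. Those of CD48 (64.5% and 54.3%) and CD41 (0.170% and 0.151%) fell. Scored doublets made up 9.72% and 16.4% of the class, and their part in these shares was not tested. CD34 (0.47), Sca1 (0.39), CD135 (0.31), CD150 (0.27), CD16_32 (0.19) and CD48 (0.10) had ratios above 0. Gr1 (-0.23), CD11b (-0.17), CD41 (-0.16) and CD117 (-0.04) had ratios below 0. As medians of the centred log2 ratio per cell these last were larger in size, at -0.57, -0.74, -0.28 and -0.26. The centred values were 0.22 for CD34, 0.34 for Sca1, -0.10 for CD135, 0.05 for CD150, -0.16 for CD16_32 and 0.17 for CD48.

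Within HSC/MPP-like cells CD127 went from 4.95 to 16.1 UMIs per cell, a log2 ratio of shares of 1.80, and CD201 from 4.39 to 8.94 (1.13). B220 had 0.89, CD150 0.79, Sca1 0.65 and CD48 -0.20. As medians of the centred log2 ratio per cell the differences were 0.55 for CD127, 0.48 for CD201, 0.40 for B220, 0.21 for CD150 and 0.28 for Sca1, smaller than in the sums. They were larger in size for CD48 (-0.60) and CD117 (-0.44, against -0.04 in the sums), and CD41 turned from 0.33 to -0.78. Neither CD127 nor CD201 was higher in HSC/MPP-like cells only. In erythroid-like cells CD127 went from 4.47 to 11.8 UMIs per cell (1.21) and CD201 from 2.46 to 5.67 (1.02). The centred differences there were 0.47 and 0.58, and in granulocyte-monocyte-like cells 0.46 and 0.45. Staining and washing of 1 library cannot be told apart from its genotype.

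**Figure D5:**
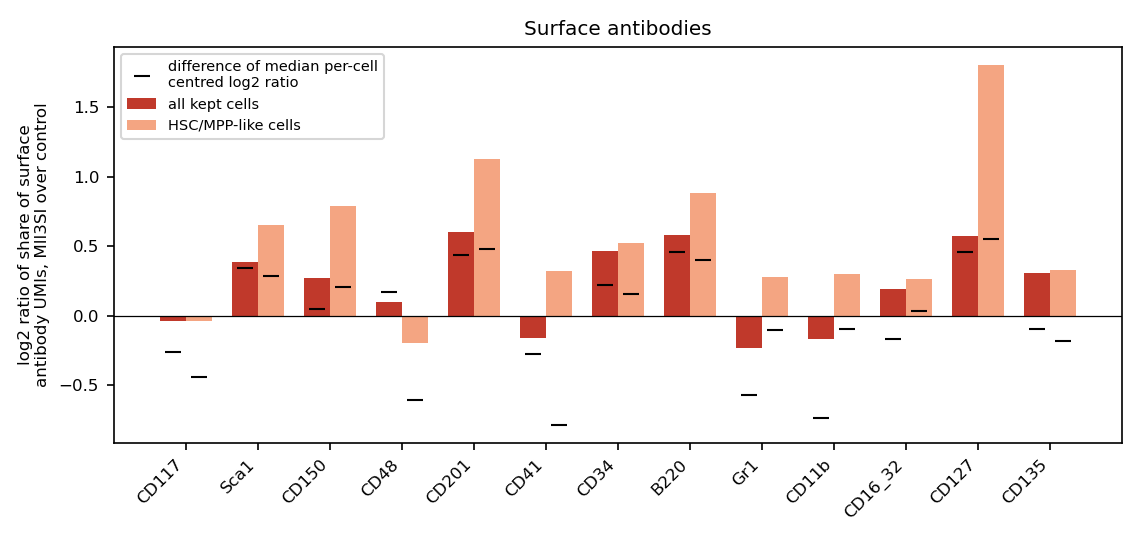
Log2 ratio (Mll3SI over control) of each surface antibody's share of surface antibody UMIs in all kept cells (red) and in HSC/MPP-like cells (light), with black dashes for the difference of the median centred log2 ratio per cell. CD127 has the highest bar, at 1.80 in HSC/MPP-like cells, and its dash is at 0.55.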

How the data were processed

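The deposited values were UMI counts per feature and cell barcode from Cell Ranger 7.1.0 on mm10, per the submitters' processing notes. The annotation and cell-calling settings were not given in the sources used here. Groups came from the sample titles. The members, gene lists and alternatives were chosen with earlier results of these data known.

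From these counts, UMIs of each gene were summed over kept cells of a library and scaled to CPM. Ratios are log2 of CPM + 1. Their 95% intervals are exact for the ratio of 2 Poisson counts, without the added 1. Shares have Clopper-Pearson intervals. The calculation was tested on simulated data.

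The 2 libraries were clustered with scanpy 1.11.5 (2000 variable genes without list and marker genes, 30 principal components, 15 neighbours, Leiden resolution 1, 21 clusters). A cluster was named where at least 3 markers of a class had a log2 fold of at least 1, with a lead of 2 over the next class and a marker among its top 10 genes. The last condition was added after the clusters were seen. Class names are thus not the authors' own. Hashtag thresholds were set at 111 UMIs (Hashtag1) and 446 UMIs (Hashtag2) after the data were seen. Doublets were scored with Scrublet (0.8% per 1000 cells, 409 control and 594 Mll3SI cells) and kept in the main values. The control mix weights the CPM of each Mll3SI cluster by its share of control UMIs.

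Named genes were the H3K4 list, called members of the 33 lists, the 12 highest and 12 lowest called genes of at least 10 CPM, and the 6 each way within a class of at least 20 CPM. Symbols of models without a name, copies, immunoglobulins, haemoglobins and sex-linked or mitochondrial genes were left out. Coordinates are GENCODE M21 (GRCm38), where 32235 of 32285 gene IDs matched. Upstream sequences are from RefSeq (GRCm38.p6).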

Additional observations from a re-analysis of the deposited data

How the results depend on the processing

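No paired analysis was possible because each group is 1 library and the labels give no replicate numbers. The count of higher genes (82) was 39 with 10 CPM added, 138, 35 and 151 with a minimum of 1 CPM, 20 CPM and none, 28 at a log2 threshold of 1, and 128 in Hashtag1 cells alone. The count of lower genes (145) was 58, then 259, 64 and 278, then 27, and 256 under the same settings, and 87 at the control mix. Of all other settings run, none moved either count by over 1.5 times.

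The B-lymphoid-like share ratio of 2.61 was 1.91 in Hashtag2 cells alone, paired by number only. The HSC/MPP-like ratio of 0.861 was 0.777 at Leiden resolution 2. The granulocyte-monocyte-like ratio of 1.01 was 1.04 with 20 principal components, 1.05 with 50, 1.04 without cells scored as doublets, 1.04 in Hashtag2 cells alone, and 1.04 in cells with 1 hashtag that were not scored as doublets, a setting chosen after seeing the data.

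These genes turned direction. At the control mix Vpreb3 had -0.0185, Igll1 -0.0254, Pax5 -0.17, Cd79a -0.32, Vpreb1 -0.16, Vpreb2 -0.29, Ms4a2 0.0507 and Prg2 0.0229. In Hashtag1 cells alone H2-Aa had 0.0559 and H2-Eb1 0.26, and in Hashtag2 cells alone Dntt had -0.32 and Prg2 0.0047. As a mean over cells Prg2 had 0.008. Igkc had -0.0008 without scored doublets and -0.0006 in the cells with 1 hashtag. Without B-lymphoid-like cells, also added after seeing the data, Cd79a had -0.0706. As a centred log ratio per cell CD16_32 had -0.16 and CD135 -0.10. The cause was not tested for any of these.

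With 1 library a group, the spread between animals and preparations was not measured, and intervals cover counting error only. Differences of genotype, library, staining and depth cannot be told apart.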
